A study of Homo sapiens with 10 samples.

Results

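Cultures of a human embryonic stem cell line were sequenced as libraries that the sample titles divide into batch 1 and batch 2, and the comparison described here is that of batch 2 with batch 1. All 10 libraries of the series enter it, 4 of batch 1 and 6 of batch 2. Each batch held both populations of the study: the general population, which was not sorted, and the HHH fraction, sorted for the highest levels of EPCAM, GCTM-2 and CD9, surface antigens that mark the undifferentiated cells of such cultures. Batch 1 had general replicates 1 and 2 and HHH replicates 2 and 3, and batch 2 had replicates 1, 2 and 3 of each. The labels name the cells HES9, an established line, grown in mTESR1 on matrigel, and give total RNA and a TruSeq RNA library for both batches. The text of the study names the line WA09 instead, and its design text mentions a protein kinase C inhibitor that no library label carries. The date, passage and laboratory steps of each batch are not given in the labels, so differences of culture, handling and sequencing between the batches cannot be told apart. Only 1 line was used, and no label says whether the replicates of a batch were separate cultures, so the p-values measure the spread between these libraries, which may be technical.

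Human embryonic stem cells hold pluripotency through a core circuit of OCT4 (POU5F1), SOX2 and NANOG, kept active by FGF signalling to ERK and by Nodal or activin signalling to SMAD2 and SMAD3, while BMP and high WNT activity drive differentiation. In cultured cells the transcripts of feedback inhibitors and immediate early genes change quickly with the medium. Small nucleolar RNAs guide modification of ribosomal RNA, and small nuclear RNAs carry out splicing. Most are short and have no poly(A) tail.

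Total counts ran from 47242595 to 78503395 in batch 1 and from 50728201 to 54770111 in batch 2. The TMM factors that scale the libraries were 0.832 to 0.925 in batch 1 and 1.03 to 1.18 in batch 2. A floor of 3 counts stood for 0.0460 to 0.0687 CPM (each library's counts after TMM scaling, as CPM), and it covers counting error only. All 8 markers of pluripotent cells that were checked exceeded 1 CPM in both batches, with summed levels of 4154 to 4946 CPM in batch 1 and 5593 to 6035 CPM in batch 2. Genes were tested with edgeR's quasi-likelihood test with the population as a term, and a gene is said to be higher or lower in batch 2 where its Benjamini-Hochberg adjusted p was under 0.05 and its fold change over 1.5. All log2 fold changes are batch 2 over batch 1. In bulk RNA a change in the number of cells of a kind and a change in their RNA cannot be told apart.

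Of 24154 genes tested, 3027 were higher in batch 2 (12.5%) and 2209 lower (9.15%), together 21.7%. Among the 15123 protein-coding genes of these, 12.1% were higher and 5.58% lower. At any fold 11457 passed the adjusted p (47.4%), and in 6815 (28.2%) the CPM ranges of the batches did not overlap. Over all 24154 genes the log2 fold changes had a median of 0.0031. Counts for the named groups are to be read against these shares. Scaling by library size alone moved that median to 0.34, with 7019 genes higher and 872 lower, so each direction here is relative to the bulk of the genes.

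In the core pluripotency network SOX2 and the noncoding RNA ESRG were higher in batch 2 and FOXD3 lower, while POU5F1 and NANOG did not pass the test. Of its 23 tested genes 5 were higher and 1 lower, with a median log2 fold change of 0.17. Scaled by library size alone, 11 were higher and none lower. POU5F1, which encodes OCT4, had 542 and 531 CPM in the general libraries of batch 1, 462 and 532 CPM in its HHH libraries, and 469.6, 572 and 641 CPM as the lowest, median and highest of the 6 libraries of batch 2. Its batches overlapped (log2 fold change 0.11 ± 0.09 (SE), adjusted p = 0.356). Where values follow in short form, those of batch 1 are general replicates 1 and 2 and HHH replicates 2 and 3, in that order, and those of batch 2 are the lowest, median and highest of its 6 libraries. NANOG had 30.3, 33.4, 42.4 and 39.5 CPM in batch 1 and 28.2, 40.6 and 48.9 CPM in batch 2, again with overlap (log2 fold change 0.11 ± 0.09 (SE), adjusted p = 0.288). LIN28A, an RNA-binding protein that blocks let-7 microRNAs, had 1706, 2049, 1469 and 1491 CPM in batch 1 and 2065, 2113 and 2473 CPM in batch 2. Its ranges did not overlap, but the change stayed under 1.5-fold (log2 fold change 0.38 ± 0.09 (SE), adjusted p = 0.00281).

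SOX2 (chr3:181711925-181714436, GRCh38), the partner of OCT4 on DNA, had 145 and 154 CPM in the general libraries of batch 1, 122 and 123 CPM in its HHH libraries, and 237, 270.0 and 302 CPM as the lowest, median and highest of the 6 libraries of batch 2. Every library of batch 2 lay above every library of batch 1 (log2 fold change 0.99 ± 0.07 (SE), adjusted p = 1.33e-07). ESRG, a long noncoding RNA of pluripotent cells, had 56.3, 49.9, 46.5 and 46.0 CPM in batch 1 and 111, 121 and 129 CPM in batch 2, also without overlap (log2 fold change 1.28 ± 0.07 (SE), adjusted p = 1.23e-08). PODXL, which carries the TRA-1-60 and TRA-1-81 antigens, rose (log2 fold change 0.80 ± 0.10 (SE), adjusted p = 3.23e-05), and so did the low-level noncoding RNA LINC-ROR (log2 fold change 1.15 ± 0.27 (SE), adjusted p = 0.00322). FOXD3, a forkhead repressor, had 12.8, 11.2, 22.4 and 20.5 CPM in batch 1 and 9.75, 10.3 and 11.7 CPM in batch 2. Its HHH libraries of batch 1 stood above all others, and the general libraries alone gave a log2 fold change of -0.27 (both populations: log2 fold change -0.62 ± 0.12 (SE), adjusted p = 0.000622). FOXD3 shares 24.1% of its exonic bases with another counted gene.

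Among genes linked to the naive state, that of the preimplantation epiblast, 6 of 11 tested were higher and 1 lower, with a median of 0.63. The gene that was lower moved most in this group. ZFP42 (chr4:187995771-188005046), which encodes REX1, had 382 and 394 CPM in the general libraries of batch 1, 421 and 325 CPM in its HHH libraries, and 100.4, 115 and 147 CPM as the lowest, median and highest of the 6 libraries of batch 2. The highest batch 2 library was below the lowest of batch 1 (log2 fold change -1.69 ± 0.10 (SE), adjusted p = 2.05e-08), and the populations alone gave -1.80 (general) and -1.57 (HHH). PRDM14, a chromatin regulator of pluripotent and germ cells, went the other way with 39.9, 44.4, 23.6 and 21.1 CPM in batch 1 and 42.7, 68.5 and 99.7 CPM in batch 2 (log2 fold change 1.11 ± 0.08 (SE), adjusted p = 7.47e-08). Only general replicate 2 of batch 1 reached the lowest of batch 2 there. KLF4, KLF5, TFAP2C, DPPA2 and NLRP7 rose by log2 fold changes of 0.63 (DPPA2) to 1.47 (NLRP7), at mean levels of 1.35 (KLF5) to 5.56 CPM (DPPA2) in batch 2.

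Genes of the post-implantation epiblast were mixed, with 1 of 12 tested higher, 2 lower and a median of 0.016, and 3 higher and none lower when scaled by library size alone. SOX3, a SOX factor of epiblast and early neural cells, had 23.0, 23.1, 32.2 and 40.4 CPM in batch 1 and 13.9, 14.5 and 19.4 CPM in batch 2 and fell without overlap (log2 fold change -0.91 ± 0.11 (SE), adjusted p = 1.27e-05). POU3F1, a POU factor of the same stages, had 11.2, 11.5, 21.7 and 25.3 CPM in batch 1 and 9.43, 10.5 and 12.9 CPM in batch 2. Only the HHH libraries of batch 1 stood apart, and the batch difference was -0.15 in the general libraries alone and -1.04 in HHH alone. CDH2, the neural cadherin, rose (log2 fold change 0.75 ± 0.09 (SE), adjusted p = 1.71e-05). OTX2, a head and epiblast factor, had 102, 89.5, 43.2 and 36.1 CPM in batch 1 and 34.1, 74.6 and 136 CPM in batch 2 and overlapped widely (log2 fold change 0.14 ± 0.11 (SE), adjusted p = 0.329).

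**Figure D1:**
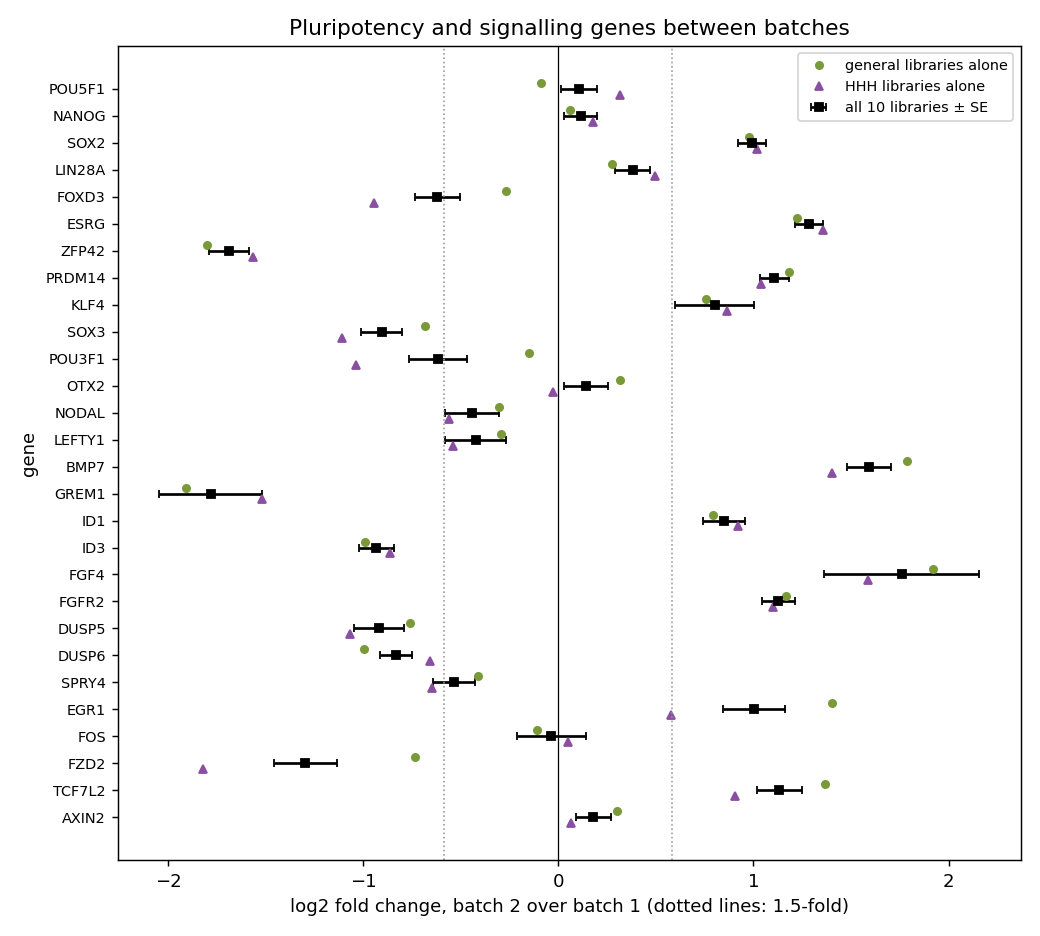
Log2 fold change of batch 2 over batch 1 for 28 pluripotency and signalling genes; squares are the fit to all 10 libraries with bars of 1 SE, circles the general libraries alone, triangles HHH alone, and dotted lines mark 1.5-fold. SOX2, ESRG, BMP7 and FGFR2 lie to the right and ZFP42 and ID3 to the left in both populations, whereas POU3F1, FZD2 and FOXD3 lie further left in HHH. GREM1 and FGF4 are drawn too, but they reached the count filter through 1 batch, so no test is given for them.

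Of 23 Nodal and activin pathway genes tested 1 was higher and 3 lower, with a median of -0.017, and 12 passed the adjusted p at any fold. Among the ligands, INHBE fell (log2 fold change -0.85 ± 0.20 (SE), adjusted p = 0.00277), as did TGFB1 (log2 fold change -0.71 ± 0.17 (SE), adjusted p = 0.00424). NODAL itself had 2.87, 4.35, 7.97 and 5.80 CPM in batch 1 and 2.49, 3.80 and 4.91 CPM in batch 2, with overlap and under 1.5-fold (log2 fold change -0.44 ± 0.14 (SE), adjusted p = 0.0166), and lost its adjusted p when either general replicate 2 or HHH replicate 2 of batch 1 was left out. Its feedback inhibitor LEFTY1 had 7.23, 16.0, 26.9 and 25.9 CPM in batch 1 and 8.73, 13.7 and 19.2 CPM in batch 2 (log2 fold change -0.42 ± 0.16 (SE), adjusted p = 0.0359), and 8 of the 10 omissions of a library took its adjusted p above 0.05. LEFTY1 shares 46.6% of its exonic bases with another gene. Its neighbour LEFTY2 did not pass the test (log2 fold change -0.39 ± 0.16 (SE), adjusted p = 0.053). The SMAD corepressor SKI rose in the general libraries more than in HHH: it had 13.8, 14.9, 25.7 and 24.8 CPM in batch 1 and 25.5, 33.7 and 36.1 CPM in batch 2, and the difference between batches was 1.30 in the general and 0.25 in the HHH libraries.

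Genes of the BMP pathway had 5 of 22 higher and 2 lower, with a median of 0.24. Among these the antagonist NOG counts as higher and GREM1 as lower, each having reached the count filter through 1 batch. The ligand BMP7 had 4.55 and 4.01 CPM in the general libraries of batch 1, 3.93 and 4.42 CPM in its HHH libraries, and 9.41, 12.996 and 15.3 CPM as the lowest, median and highest of the 6 libraries of batch 2. All batch 2 libraries were above all of batch 1 (log2 fold change 1.59 ± 0.11 (SE), adjusted p = 1.12e-07). BMP2 (log2 fold change 0.28 ± 0.11 (SE), adjusted p = 0.0599) and BMP4 (log2 fold change 0.26 ± 0.16 (SE), adjusted p = 0.194) did not pass the test. Of the antagonists, which bind BMPs outside the cell, GREM1 had 1.03, 1.11, 0.430 and 0.206 CPM in batch 1 and 0.0884, 0.160 and 0.346 CPM in batch 2. It could not have reached the count filter without batch 1, so no test is given for it. NOG had 5, 6, 9 and 8 counts in batch 1 and 15, 13, 12, 14, 13 and 16 in batch 2. With every batch 1 library under the minimum count of 10, NOG is given without a test. The receptor BMPR2 rose (log2 fold change 0.64 ± 0.09 (SE), adjusted p = 4.85e-05).

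The ID genes, direct targets of BMP signalling that block basic helix-loop-helix factors, went in opposite directions. ID1 had 61.3 and 52.5 CPM in the general libraries of batch 1, 33.0 and 38.0 CPM in its HHH libraries, and 52.2, 83.0 and 103 CPM as the lowest, median and highest of the 6 libraries of batch 2. Its general libraries of batch 1 reached the lowest batch 2 value, that of an HHH library. Within each population every batch 2 library was above those of batch 1 (log2 fold change 0.85 ± 0.11 (SE), adjusted p = 2.56e-05). ID3 (chr1:23557926-23559501) had 84.7 and 71.3 CPM in the general libraries of batch 1, 91.3 and 77.5 CPM in its HHH libraries, and 35.3, 40.9 and 52.1 CPM as the lowest, median and highest of the 6 libraries of batch 2, with every batch 2 library lower (log2 fold change -0.93 ± 0.09 (SE), adjusted p = 2.43e-06). ID4 rose (log2 fold change 0.61 ± 0.19 (SE), adjusted p = 0.0183) and ID2 stayed under 1.5-fold (log2 fold change 0.40 ± 0.10 (SE), adjusted p = 0.00394).

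In the FGF and ERK pathway 2 of 30 tested genes were higher and 3 lower, with a median of -0.037. Of the 2 higher genes, the ligand FGF4 reached the count filter through batch 2 alone. The receptor FGFR2 had 62.4 and 66.6 CPM in the general libraries of batch 1, 43.5 and 51.2 CPM in its HHH libraries, and 96.9, 114 and 155 CPM as the lowest, median and highest of the 6 libraries of batch 2, without overlap (log2 fold change 1.13 ± 0.08 (SE), adjusted p = 2.05e-07). FGF4, a ligand of the epiblast, had 6, 2, 5 and 2 counts in batch 1 and 16, 12, 13, 19, 8 and 16 in batch 2, or 0.0920, 0.0336, 0.107 and 0.0458 CPM in batch 1 and 0.140, 0.248 and 0.329 CPM in batch 2. It reached the count filter through batch 2 alone, so no test is given for it. FGF2, the ligand of the culture medium, had 174, 154, 118 and 119 CPM in batch 1 and 129, 155 and 174 CPM in batch 2 as transcript and did not pass the test (log2 fold change 0.13 ± 0.07 (SE), adjusted p = 0.138). FGFR1 stayed under 1.5-fold over all libraries (log2 fold change 0.46 ± 0.12 (SE), adjusted p = 0.007), with 0.83 in the general libraries alone and 0.13 in HHH alone.

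Of 3 phosphatases that switch ERK off, DUSP5 and DUSP6 were lower in batch 2 and DUSP4 did not pass the test (log2 fold change -0.23 ± 0.13 (SE), adjusted p = 0.15). DUSP6 had 214 and 206 CPM in the general libraries of batch 1, 345 and 354 CPM in its HHH libraries, and 95.9, 158 and 231 CPM as the lowest, median and highest of the 6 libraries of batch 2. The general libraries of batch 1 overlapped the highest of batch 2, and each population alone was lower, at -0.9966 (general) and -0.659 (HHH) (log2 fold change -0.83 ± 0.08 (SE), adjusted p = 2.71e-06). DUSP5 had 25.2, 30.3, 56.2 and 44.6 CPM in batch 1 and 12.979, 18.7 and 28.3 CPM in batch 2 (log2 fold change -0.92 ± 0.13 (SE), adjusted p = 5.86e-05). For DUSP5 every batch 2 library was below those of batch 1 within each population. None of 5 feedback inhibitors was called, with a median of 0.017. SPRY4 (log2 fold change -0.53 ± 0.11 (SE), adjusted p = 0.00102) and SPRED1 (log2 fold change -0.51 ± 0.09 (SE), adjusted p = 0.000547) passed the adjusted p at under 1.5-fold, and SPRY1 (log2 fold change 0.02 ± 0.09 (SE), adjusted p = 0.881), SPRY2 (log2 fold change 0.19 ± 0.09 (SE), adjusted p = 0.0944) and SPRED2 (log2 fold change 0.21 ± 0.11 (SE), adjusted p = 0.137) did not. Of the ETS factors ETV5 (log2 fold change -0.57 ± 0.09 (SE), adjusted p = 0.000148) and ETV4 (log2 fold change -0.27 ± 0.07 (SE), adjusted p = 0.00668) passed it at under 1.5-fold, and ETV1 did not (log2 fold change -0.07 ± 0.09 (SE), adjusted p = 0.539). HRAS, the GTPase upstream of ERK, fell without overlap (log2 fold change -0.66 ± 0.10 (SE), adjusted p = 0.000102).

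Of 20 immediate early genes 5 were higher, 1 lower and the median was 0.012. EGR1 had 5.92 and 6.46 CPM in the general libraries of batch 1, 4.25 and 3.46 CPM in its HHH libraries, and 5.41, 10.1 and 19.8 CPM as the lowest, median and highest of the 6 libraries of batch 2. Batches overlapped, and the general libraries alone gave 1.40 against 0.58 in HHH alone (log2 fold change 1.00 ± 0.16 (SE), adjusted p = 0.000186). FOS had 22.8, 17.3, 15.3 and 13.9 CPM in batch 1 and 11.6, 16.1 and 23.2 CPM in batch 2 and did not pass the test (log2 fold change -0.04 ± 0.18 (SE), adjusted p = 0.883). CCN1, a secreted matrix protein, fell without overlap (log2 fold change -0.64 ± 0.10 (SE), adjusted p = 0.000111). EGR2 rose with overlap (log2 fold change 0.74 ± 0.18 (SE), adjusted p = 0.00339). In HHH alone no immediate early gene was higher and 1 was lower, and in the general libraries alone 4 were higher and 1 lower.

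WNT pathway genes had 8 of 41 higher and 1 lower, with a median of 0.099. TCF7L2, a nuclear partner of beta-catenin, had 8.64 and 9.93 CPM in the general libraries of batch 1, 10.031 and 9.92 CPM in its HHH libraries, and 17.1, 21.7 and 27.0 CPM as the lowest, median and highest of the 6 libraries of batch 2, without overlap (log2 fold change 1.13 ± 0.11 (SE), adjusted p = 3.58e-06). AXIN2, the usual readout of WNT activity, had 16.9, 18.9, 15.8 and 18.2 CPM in batch 1 and 16.3, 19.3 and 23.6 CPM in batch 2 and did not pass the test (log2 fold change 0.18 ± 0.09 (SE), adjusted p = 0.112). AXIN2 shares 25.3% of its exonic bases with another gene. Among other readouts and partners, LEF1 (log2 fold change 0.09 ± 0.22 (SE), adjusted p = 0.756) and DACT1 (log2 fold change 0.23 ± 0.14 (SE), adjusted p = 0.202) did not pass it either, and NKD2, an inhibitor of Dishevelled, rose (log2 fold change 0.79 ± 0.18 (SE), adjusted p = 0.00291). Of the secreted proteins, the ligand WNT8B was at a low level, with 0.261, 0.168, 0.258 and 0.321 CPM in batch 1 and 0.421, 0.560 and 0.864 CPM in batch 2. It could not have reached the count filter without batch 2, so no test is given for it. The inhibitor DKK1 did not pass the test (log2 fold change -0.39 ± 0.36 (SE), adjusted p = 0.401), and FRZB stayed just under 1.5-fold (log2 fold change 0.58 ± 0.18 (SE), adjusted p = 0.0168), with 0.96 in the general libraries alone and 0.09 in HHH alone, and missed the adjusted p without either general library of batch 1. Receptors of the frizzled family differed in direction: FZD2 had 38.4, 41.9, 52.8 and 65.7 CPM in batch 1 and 16.2, 19.7 and 25.2 CPM in batch 2 and fell (log2 fold change -1.30 ± 0.16 (SE), adjusted p = 2.33e-05), whereas FZD10, under 1 CPM, rose (log2 fold change 1.05 ± 0.32 (SE), adjusted p = 0.0147). FZD8 did not pass the test (log2 fold change -0.04 ± 0.11 (SE), adjusted p = 0.792). FZD5 stayed under 1.5-fold over all libraries (log2 fold change 0.40 ± 0.14 (SE), adjusted p = 0.0279), with 0.82 in the general libraries alone and 0.015 in HHH alone, and, without either general library of batch 1 or general replicate 2 of batch 2, missed the adjusted p. After removal of a trend with GC content and transcript length, the signalling genes as a whole turned from 21 higher and 10 lower of 136 tested to 12 higher and 14 lower, and in HHH alone they were 9 higher and 11 lower. Scaled by library size alone, 5 Nodal and activin genes were higher and 1 lower, 11 BMP genes higher and 2 lower, 6 FGF and ERK genes higher and none lower, and 14 WNT genes higher and 1 lower.

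Small RNAs separated the batches in every library. Small nucleolar, Cajal body and small nuclear RNAs took 3.80 ± 1.00% of the counts in batch 1 (SD, n = 4) and 0.608 ± 0.108% in batch 2 (SD, n = 6). The lowest library of batch 1, HHH replicate 3, had 2.71% and the highest of batch 2, HHH replicate 3, had 0.727%. In an exact two-sided permutation test of the batch labels within each population, which allows 100 arrangements, the difference had p = 0.01, the smallest that these permit (adjusted p = 0.019 over 19 measures). Small nuclear RNAs fell from 1.54 ± 0.552% to 0.111 ± 0.0206%, C/D box RNAs from 1.84 ± 0.408% to 0.383 ± 0.0891%, and H/ACA box RNAs from 0.334 ± 0.0903% to 0.0742 ± 0.00923% (SD, n = 4 and 6, same p for each). Of 2676 such loci annotated 379 had enough counts to be tested, and 292 of these were lower and 9 higher, with a median of -1.40. A locus that reached the count filter through batch 1 alone had to be lower in batch 2, so these counts describe the loci tested, and the shares of counts cover all loci.

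**Figure D2:**
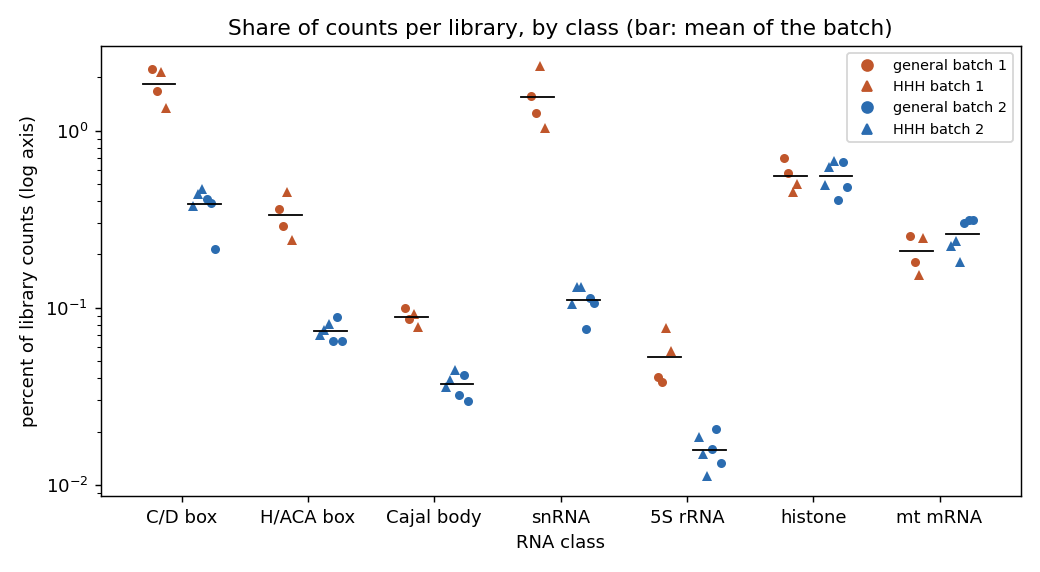
Percent of each library's counts in 7 RNA classes on a log axis, with circles for general and triangles for HHH libraries and a bar at the mean of each batch. The C/D box, H/ACA box, Cajal body, snRNA and 5S rRNA shares of the 4 batch 1 libraries lie above those of the 6 batch 2 libraries, while histone and mitochondrial mRNA shares overlap.

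Of these classes and the Y RNAs, 5 members on which the results turn are shown with their GENCODE 44 sequences as DNA letters. Capitals mark the ACA near the 3′ end of the H/ACA RNA, the C box (TGATGA) and D box (CTGA) of the C/D RNA, the Sm protein site (ATTTTTG) of a small nuclear RNA, and the final run of T where RNA polymerase III stops. In order they lie at chr14:81202695-81202834 (-), chr14:100953349-100953423 (+), chr12:120291763-120291903 (-), chr9:134164439-134164564 (-) and chr7:148963315-148963410 (+) in GRCh38.
SNORA79: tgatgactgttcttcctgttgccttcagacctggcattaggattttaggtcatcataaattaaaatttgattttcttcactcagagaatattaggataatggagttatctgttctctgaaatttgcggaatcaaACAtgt
SNORD114-3: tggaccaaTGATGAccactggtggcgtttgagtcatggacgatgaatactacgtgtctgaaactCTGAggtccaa
RNU4-2: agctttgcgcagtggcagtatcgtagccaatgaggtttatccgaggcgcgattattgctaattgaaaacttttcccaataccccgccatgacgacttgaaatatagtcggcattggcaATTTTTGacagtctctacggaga
RNU6ATAC: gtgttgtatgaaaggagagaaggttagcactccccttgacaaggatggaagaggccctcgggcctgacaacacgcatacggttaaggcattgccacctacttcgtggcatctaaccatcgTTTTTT
RNY4: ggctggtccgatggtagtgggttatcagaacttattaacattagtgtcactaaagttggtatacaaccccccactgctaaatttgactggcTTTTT

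H/ACA box RNAs guide conversion of uridine to pseudouridine, and 92 of 102 tested were lower, none higher, with a median of -2.26. SNORA74A had 559 and 375 CPM in the general libraries of batch 1, 655 and 272 CPM in its HHH libraries, and 7.30, 11.3 and 14.2 CPM as the lowest, median and highest of the 6 libraries of batch 2. Every batch 1 library lay above every library of batch 2 (log2 fold change -5.46 ± 0.24 (SE), adjusted p = 8.99e-10). SNORA79 had 284, 207, 257 and 119 counts in batch 1 and 9, 7, 3, 4, 2 and 0 in batch 2, near 0 in all 6, with 4.35, 3.47, 5.52 and 2.73 CPM in batch 1 and 0, 0.0611 and 0.155 CPM in batch 2. C/D box RNAs guide methylation of ribose, and 107 of 144 were lower and 1 higher, with a median of -0.95, but once trends with GC content and length were removed 19 were lower and 27 higher. These trends were fitted over all annotated genes, of which the protein-coding ones had 207 bases or more. At the 64 to 92 bases of most C/D RNAs length and RNA class cannot be told apart, so the removal can take out a class difference too. SNORD3A, the U3 RNA that takes part in cutting the precursor of ribosomal RNA, had 23631, 16242, 20568 and 12534 CPM in batch 1 and 1094, 2887 and 3773 CPM in batch 2 (log2 fold change -2.74 ± 0.26 (SE), adjusted p = 1.71e-06). SNORD114-3, of an imprinted cluster, had 87, 61, 84 and 36 counts in batch 1 and 4, 6, 6, 8, 4 and 4 in batch 2, or 1.33, 1.02, 1.804 and 0.825 CPM in batch 1 and 0.0666, 0.0869 and 0.138 CPM in batch 2. It reached the count filter through batch 1 alone, so no test is given. SNORD118, the U8 RNA, fell too (log2 fold change -4.14 ± 0.19 (SE), adjusted p = 1.82e-09), but all of its bases lie in exons of another counted gene.

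Of 17 Cajal body RNAs, which guide the modification of small nuclear RNAs, 16 were lower and none higher, with a median of -1.92. SCARNA5 had 216, 168, 185 and 139.6 CPM in batch 1 and 10.8, 17.1 and 23.2 CPM in batch 2 (log2 fold change -3.44 ± 0.18 (SE), adjusted p = 5.70e-09). SCARNA6 fell too (log2 fold change -2.58 ± 0.16 (SE), adjusted p = 2.13e-08). Among 98 small nuclear RNA loci 69 were lower and 6 higher, with a median of -2.22. Once trends with GC content and length were removed, 58 of these loci were lower and 22 higher, with a median of -1.40. Of the Cajal body RNAs 12 were then lower and 1 higher, with a median of -1.23. RNU4-2, a U4 gene of the major spliceosome, had 485 and 339.8 CPM in the general libraries of batch 1, 689 and 283 CPM in its HHH libraries, and 22.2, 38.3 and 44.1 CPM as the lowest, median and highest of the 6 libraries of batch 2, without overlap (log2 fold change -3.68 ± 0.23 (SE), adjusted p = 3.62e-08). Copies of these genes reached 0: RNU2-43P had 81, 49, 75 and 40 counts in batch 1 and 0, 0, 0, 0, 0 and 0 in batch 2, and RNU6ATAC10P 47, 45, 144 and 24 against 1, 0, 0, 0, 0 and 1. RNU6ATAC, of the minor spliceosome, had 18.9, 15.4, 41.4 and 13.2 CPM in batch 1 and 0.242, 0.534 and 0.719 CPM in batch 2 (log2 fold change -5.41 ± 0.31 (SE), adjusted p = 1.27e-08). The Y RNA RNY4, a component of Ro particles, had 116, 53, 239 and 59 counts in batch 1 and 0, 1, 0, 1, 2 and 1 in batch 2, all of the latter under the floor of 3 counts. By contrast 7SK (RN7SK), the abundant RNA that holds the elongation factor P-TEFb, stayed under 1.5-fold (log2 fold change -0.46 ± 0.14 (SE), adjusted p = 0.0138), and its adjusted p rose to 0.063 without general replicate 1 of batch 1. The wider group of 7SL, 7SK and Y RNA loci and copies had 56 of 127 lower and 10 higher, with a median of -0.51, but 44 lower and 31 higher with a median of 0.21 after removal of GC and length trends, and 45 lower and 19 higher by library size alone. In it RN7SL582P had 107, 79, 62 and 88 counts in batch 1 and 0, 0, 1, 0, 1 and 3 in batch 2, and RN7SKP127 rose (log2 fold change 1.48 ± 0.22 (SE), adjusted p = 0.000106). RN7SL731P rose (log2 fold change 0.74 ± 0.13 (SE), adjusted p = 0.000372) with all of its bases in exons of another gene. MALAT1, a long nuclear RNA, had 586, 460.0, 475 and 524 CPM in batch 1 and 501, 743 and 1102 CPM in batch 2 (log2 fold change 0.55 ± 0.14 (SE), adjusted p = 0.00401).

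Most annotated small nuclear RNA loci are copies of the functional genes. The Sm site ATTTTTG on the RNA strand occurred in 98 of 1786 annotated loci (5.49%) and in 17 of the 98 tested. These 17 were lower, with a median of -4.24, against 52 of the 81 without it and a median of -1.52. The tested loci also differed by length. Their medians were -0.46 at 60 to 107 bases, -2.41 at 107 to 164 and -4.75 at 164 to 230. In these groups 37.5%, 81.8% and 90.9% were lower. Whether the site matters apart from length was not tested, and loci that reached the count filter through batch 1 alone had to be lower. For C/D RNAs the boxes, TGATGA within the first 20 bases and CTGA within the last 20, were found in 172 of 273 annotated (63.0%). Their medians differed little, -0.91 with both boxes and -1.02 without. An ACA followed by 2 to 4 final bases stood in 136 of 188 H/ACA RNAs (72.3%), with medians of -2.24 with it and -2.33 without.

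Of 503 annotated genes and copies of 5S ribosomal RNA 29 were tested, with 25 lower, 1 higher and a median of -5.37. Those that reached the count filter through batch 1 alone had to be lower. Over all of them the share of counts was 0.0530 ± 0.0177% in batch 1 (SD, n = 4) and 0.0158 ± 0.00344% in batch 2 (SD, n = 6). Since these copies are near identical, reads cannot be assigned to 1 of them. The source of the reads counted at microRNA loci was not tested. These loci had 13 of 77 lower and 6 higher, with a median of -0.042, and scaled by library size alone 9 lower and 17 higher. After removal of trends with GC content and length 3 were lower and 52 higher, with a median of 1.04. For these short loci too, length and RNA class cannot be told apart in that fit. MIR4449 fell (log2 fold change -3.70 ± 0.35 (SE), adjusted p = 1.69e-06) within an exon of another gene. MIR1229 rose (log2 fold change 0.65 ± 0.20 (SE), adjusted p = 0.0153). Replication-dependent histone genes, whose messages also lack a poly(A) tail, took 0.555 ± 0.107% and 0.556 ± 0.111% of the counts in batches 1 and 2 (exact permutation p = 0.99). Their gene counts were 8 of 32 lower and none higher, with a median of -0.31. H1-1 fell without overlap (log2 fold change -1.796 ± 0.18 (SE), adjusted p = 2.46e-06). H4C8 had 389, 350.4, 300.5 and 290.3 CPM in batch 1 and 114, 167 and 211 CPM in batch 2 and fell as well (log2 fold change -1.06 ± 0.16 (SE), adjusted p = 9.47e-05). Histone counts were 22 of 32 lower in the general libraries alone and 3 of 32 in HHH alone.

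A small set of genes was near 0 in 1 batch and plainly read in the other. With at most 10 counts in every library of 1 batch and at least 1 CPM in every library of the other, a rule set after the values had been seen, 15 genes were near 0 in batch 1 and 16 in batch 2. Those of batch 1 lay on 10 chromosomes and those of batch 2 on 11. The first 15 held 11 protein-coding genes, and the other 16 held 2, beside 7 copies of 5S ribosomal RNA and 5 other small RNA loci or copies. Counts are given for batch 1 in the order used above and for batch 2 as HHH replicates 1 to 3 and general replicates 1 to 3. Ratios are of count rates over all libraries of a batch, with exact intervals for counting error only.

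CAT (chr11:34438934-34472060), which encodes catalase, had 0, 3, 1 and 0 counts in the libraries of batch 1 and 665, 692, 696, 606, 601 and 580 in those of batch 2, a rate higher by 594 times (exact 95% interval 232 to 2182). CBR1, carbonyl reductase, had 3, 2, 7 and 2 counts against 2369, 2286, 2814, 1566, 1607 and 1517, or 538 times (exact 95% interval 320.3 to 984). CBR1 shares 18.9% of its exonic bases with another gene. PUS7L (chr12:43718992-43758793), a pseudouridine synthase homologue, had 0, 0, 2 and 2 against 1634, 1612, 1924, 1438, 1519 and 1410, or 1476 times (exact 95% interval 576 to 5418).

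IRAK4 (chr12:43758944-43798307), the kinase of Toll-like and interleukin-1 receptors, had 1, 2, 0 and 0 counts in batch 1 and 247, 250, 274, 243, 251 and 242 in batch 2. It starts 151 bases from PUS7L on the opposite strand, so these 2 genes share a start region and were both near 0 in batch 1. C9orf64 had 2, 2, 0 and 0 against 645, 678, 718, 554, 708 and 678. EVC2, IRAK1BP1, ECHDC3, ZNF829, PXMP4 and TRIM61 were the other protein-coding genes near 0 in batch 1, at mean levels in batch 2 of 1.79 (TRIM61) to 8.70 CPM (ECHDC3) among TRIM61, PXMP4, ZNF829, EVC2, IRAK1BP1 and ECHDC3. ZNF829 starts 25 bases from ZNF568 on the opposite strand, and ZNF568 had a mean of 0.706 CPM in batch 1 and 2.27 CPM in batch 2 (log2 fold change 1.67). EVC, which starts 1653 bases from EVC2, differed by 0.44.

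In the other direction, EDNRB (chr13:77895481-77975529), the endothelin receptor B of neural crest cells, had 687, 328, 388 and 335 counts in batch 1 and 3, 2, 3, 1, 4 and 1 in batch 2, a rate lower by 201 times (exact 95% interval 119 to 368). MAP10, a microtubule-associated protein, had 190, 200, 149 and 163 counts in batch 1 and 0, 0, 1, 0, 0 and 0 in batch 2. Since the rule chose these genes by their counts, no test is given for them. With limits of 3 and 30 counts in place of 10, the sets held 8 and 26 genes near 0 in batch 1 and 9 and 38 in batch 2.

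**Figure D3:**
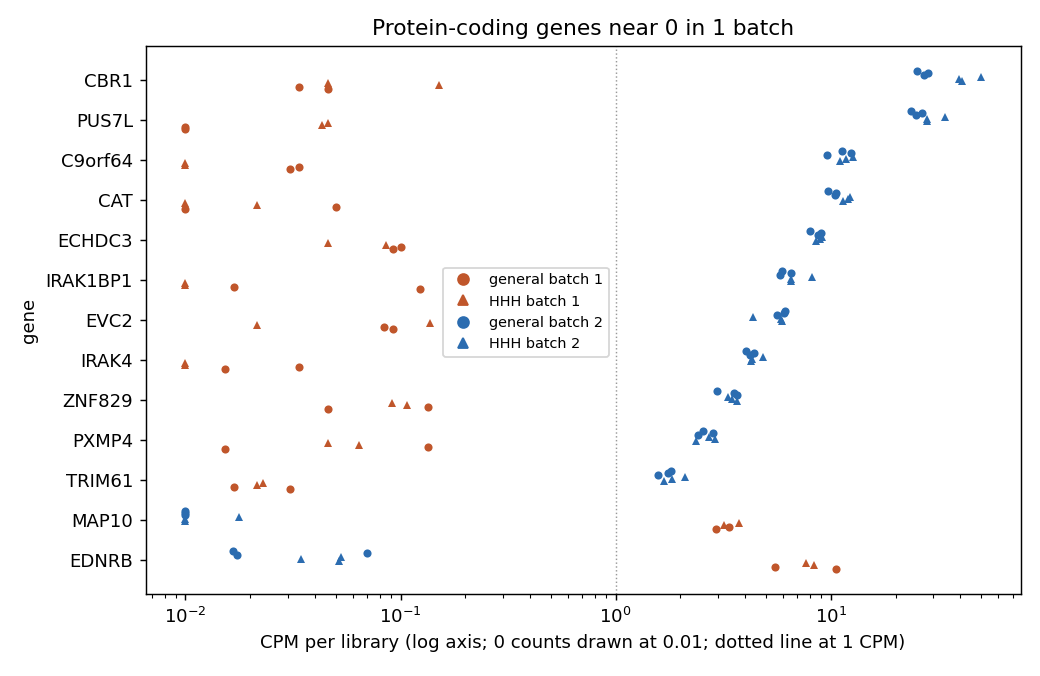
CPM of each library on a log axis for the 13 protein-coding genes near 0 in 1 batch, with 0 counts drawn at 0.01; circles are general and triangles HHH libraries. For 11 genes the batch 2 libraries lie above 1 CPM and batch 1 at or under 0.150 CPM (CBR1), and for MAP10 and EDNRB the batches change places.

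The bases just before the starts of 3 of these genes are shown so that their content of CpG, the dinucleotide that carries DNA methylation, can be set beside their counts. CpG is in capitals, and methylation was not measured. The sequences are RefSeq windows of GRCh38.p14, limited to bases outside annotated exons: chr12:43758794-43758943 (+, between PUS7L and IRAK4), chr11:34438684-34438933 (+) and chr10:11742132-11742365 (+).
IRAK4: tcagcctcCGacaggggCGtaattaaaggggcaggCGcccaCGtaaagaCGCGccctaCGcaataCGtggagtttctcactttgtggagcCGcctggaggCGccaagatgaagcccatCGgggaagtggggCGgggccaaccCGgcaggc
CAT: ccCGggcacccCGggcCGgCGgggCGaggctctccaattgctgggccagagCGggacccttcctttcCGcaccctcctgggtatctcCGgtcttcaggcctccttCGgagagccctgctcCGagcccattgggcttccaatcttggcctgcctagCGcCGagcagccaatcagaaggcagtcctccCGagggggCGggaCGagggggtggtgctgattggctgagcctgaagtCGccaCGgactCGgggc
ECHDC3: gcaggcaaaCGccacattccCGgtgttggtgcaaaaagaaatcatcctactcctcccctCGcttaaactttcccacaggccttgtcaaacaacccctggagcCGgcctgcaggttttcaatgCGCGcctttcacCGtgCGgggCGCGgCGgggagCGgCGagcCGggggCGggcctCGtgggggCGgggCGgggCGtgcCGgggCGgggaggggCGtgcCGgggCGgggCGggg
In the 250 bases before the start, the 10 genes near 0 in batch 1 with an entry had 8 to 28 CpG with a median of 22.5, against a median of 20 over 12015 tested protein-coding genes. EDNRB had 9 and MAP10 had 13. CAT had 18, a number that 59.8% of the tested protein-coding genes reached.

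Larger shifts at other levels are given for the rest of the genes named by the rule. WDR74 had 15521 and 11366 CPM in the general libraries of batch 1, 20773 and 8999 CPM in its HHH libraries, and 533, 801 and 1027 CPM as the lowest, median and highest of the 6 libraries of batch 2 (log2 fold change -4.16 ± 0.21 (SE), adjusted p = 2.93e-09). It shares 16.7% of its exonic bases with other counted genes, and its values cannot be assigned to its own message. CCDC125 fell (log2 fold change -4.01 ± 0.16 (SE), adjusted p = 3.65e-10). PKLR, the pyruvate kinase of liver and red cells, had 95, 60, 36 and 49 counts in batch 1 and 4, 4, 4, 5, 3 and 16 in batch 2. It reached the count filter through batch 1 alone, so no test is given. Lack of overlap between the batches was a condition for naming both genes.

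Most cholesterol synthesis genes fell and many hypoxia response genes rose. Of 20 cholesterol synthesis genes 15 were lower and none higher, with a median of -0.86, and in 17 the batches did not overlap. CYP51A1, a sterol demethylase, had 389.7, 381, 459 and 318 CPM in batch 1 and 132, 181 and 194 CPM in batch 2 (log2 fold change -1.18 ± 0.11 (SE), adjusted p = 1.26e-06). MVD, which makes isopentenyl diphosphate, had 70.6, 80.4, 112 and 82.4 CPM in batch 1 and 38.2, 38.7 and 43.6 CPM in batch 2 (log2 fold change -1.09 ± 0.09 (SE), adjusted p = 5.52e-07). No library of batch 2 reached any of batch 1 for either gene. With library size as the scaling 7 of the 20 were lower and none higher. Of the 20, 15 were also lower after removal of the trend with GC content, and 14 to 16 with any 1 library left out.

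Of 24 hypoxia response genes 12 were higher and none lower, with a median of 0.52. BNIP3, a mitophagy receptor, had 8.996 and 7.31 CPM in the general libraries of batch 1, 7.07 and 9.05 CPM in its HHH libraries, and 35.5, 46.5 and 54.5 CPM as the lowest, median and highest of the 6 libraries of batch 2, without overlap (log2 fold change 2.48 ± 0.13 (SE), adjusted p = 4.12e-09). P4HA2, a collagen prolyl hydroxylase, had 6.74, 4.78, 4.19 and 4.81 CPM in batch 1 and 10.010, 12.2 and 14.0 CPM in batch 2 (log2 fold change 1.23 ± 0.11 (SE), adjusted p = 9.99e-07). LDHA, lactate dehydrogenase, had 332, 361, 406 and 348 CPM in batch 1 and 546, 667 and 835 CPM in batch 2 (log2 fold change 0.89 ± 0.09 (SE), adjusted p = 4.73e-06). The count was 9 to 12 with 1 library left out, 10 after removal of the GC trend and 9 after that of GC and length.

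Stress genes split. Among 19 genes of amino acid and endoplasmic reticulum stress 2 were higher and 6 lower, with a median of -0.34, and scaled by library size alone 4 were higher and 1 lower. DDIT4, an inhibitor of mTORC1, rose (log2 fold change 1.41 ± 0.16 (SE), adjusted p = 8.55e-06) and so did the chaperone HSP90B1 (log2 fold change 0.88 ± 0.15 (SE), adjusted p = 0.000378), whereas the cystine carrier SLC7A11 (log2 fold change -0.93 ± 0.11 (SE), adjusted p = 1.51e-05) and the factor XBP1 (log2 fold change -0.80 ± 0.09 (SE), adjusted p = 1.21e-05) fell. Of 12 heat shock genes HSP90AA1 was higher, with 417, 458, 444 and 463 CPM in batch 1 and 1116, 1216 and 1256 CPM in batch 2 (log2 fold change 1.43 ± 0.08 (SE), adjusted p = 7.54e-09), and HSPA8 lower, with 2781, 3601, 4209.9 and 3015 CPM in batch 1 and 1681, 1871 and 2381 CPM in batch 2 (log2 fold change -0.80 ± 0.11 (SE), adjusted p = 4.51e-05). For both chaperones the batches did not overlap.

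Of 20 S phase genes 8 passed the adjusted p at any fold, and 1 was higher and 1 lower by over 1.5-fold, with a median of -0.16: TYMS rose (log2 fold change 1.07 ± 0.09 (SE), adjusted p = 4.34e-07), with 47.9% of its exonic bases shared with other genes, and RRM2 fell (log2 fold change -0.68 ± 0.08 (SE), adjusted p = 1.57e-05). Of 20 G2/M genes 11 passed it at any fold, and 3 were higher and none lower by over 1.5-fold, with a median of 0.15. CENPF, a kinetochore protein, had 182, 244, 156 and 206 CPM in batch 1 and 404, 478 and 541 CPM in batch 2 (log2 fold change 1.27 ± 0.13 (SE), adjusted p = 3.35e-06), and CENPE, a kinetochore motor, 41.2, 62.1, 40.8 and 51.1 CPM in batch 1 and 80.1, 124 and 136 CPM in batch 2 (log2 fold change 1.25 ± 0.15 (SE), adjusted p = 1.56e-05). Both have long transcripts.

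**Figure D4:**
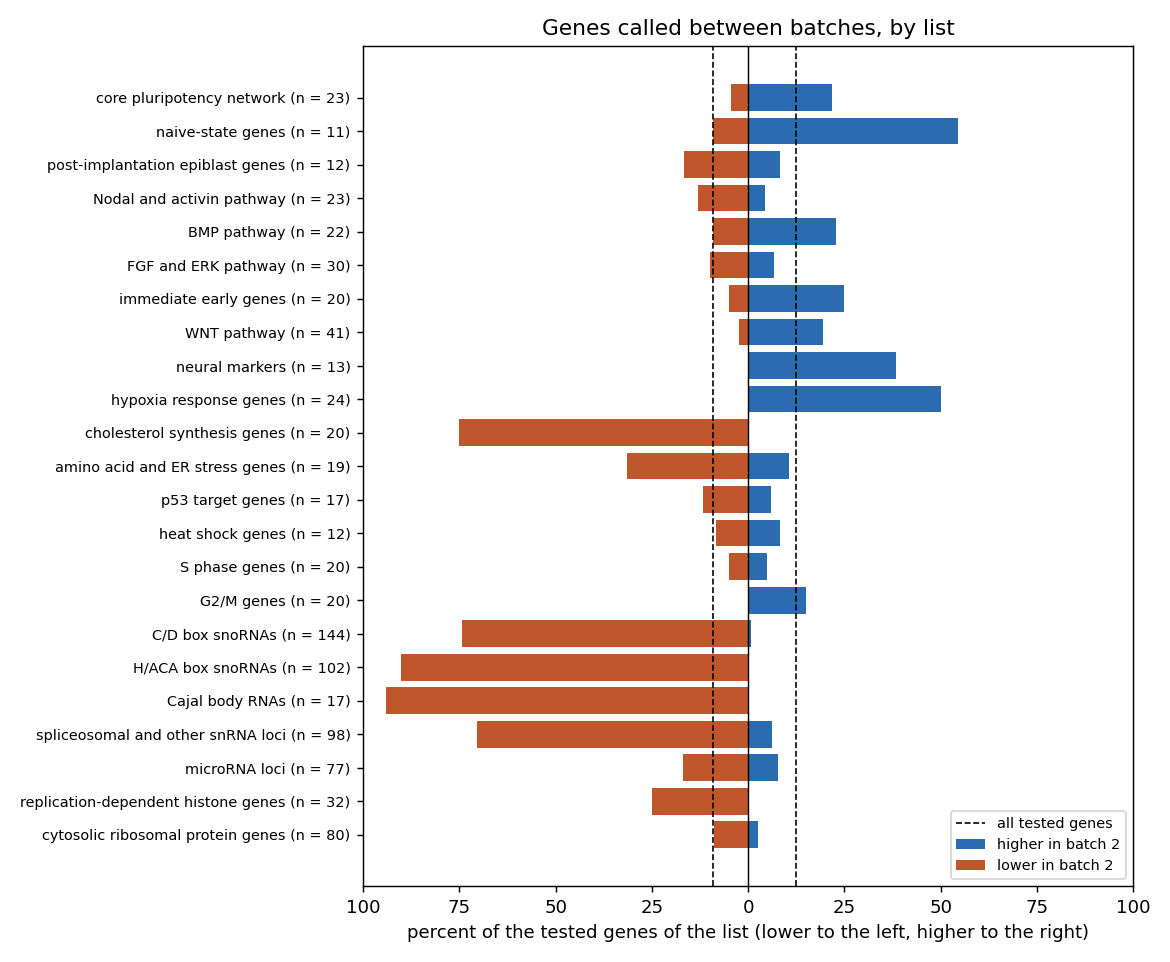
Percent of the tested genes of each list that were lower (left) or higher (right) in batch 2, with dashed lines at the shares over all tested genes. The snoRNA, Cajal body, snRNA and cholesterol bars run far to the left and the hypoxia and naive-state bars to the right, while the Nodal, FGF and S phase bars stay close to or inside the dashed lines.

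Lists of markers of lineages that such cultures can hold were checked. In both batches 6 of 20 neural markers exceeded 1 CPM. Of 13 neural markers tested 5 were higher and none lower, while the summed level of the list was 244.6 to 276.1 CPM in batch 1 and 154.0 to 359 CPM in batch 2. Their median log2 fold change was 0.79, and 0.36 in DESeq2. In the general libraries alone 6 were higher, with a median of 1.09, and in HHH alone 2, with a median of 0.46. FEZF1, a forebrain factor, rose (log2 fold change 0.79 ± 0.14 (SE), adjusted p = 0.000446). IRX3 had 0.828, 0.755, 0.215 and 0.619 CPM in batch 1 and 0.704, 1.62 and 2.47 CPM in batch 2. It could not have reached the count filter without batch 2, so no test is given for it. SOX21, a SOX factor of neural progenitors named here after its values were seen, had a mean of 0.688 ± 0.430 CPM in batch 1 (SD, n = 4) and 10.6 ± 8.35 CPM in batch 2 (SD, n = 6), without overlap. Mesendoderm markers summed to 115 to 165 CPM and 120.5 to 159 CPM. FOXA2, an endoderm factor, had 0.107, 0.906, 1.68 and 1.37 CPM in batch 1 and 0, 0.0348 and 0.206 CPM in batch 2. Its median in batch 2 lay under the floor, and it could not have reached the count filter without batch 1, so no test is given. General replicate 1 of batch 1 fell within the range of batch 2. TBX6, a mesoderm factor, rose from a low level (log2 fold change 0.96 ± 0.19 (SE), adjusted p = 0.00101). Of 4 extraembryonic markers tested KRT7 was higher (log2 fold change 0.59 ± 0.12 (SE), adjusted p = 0.00149) and SDC1 lower (log2 fold change -0.60 ± 0.08 (SE), adjusted p = 3.72e-05), and the list summed to 83.8 to 108 CPM and 66.1 to 78.0 CPM. The share of these cell types in the differences above was not tested.

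The batch difference had little relation to GC content and a stronger one to transcript length. Across 15123 protein-coding genes, which are not independent replicates, Spearman's rho of the log2 fold change with GC content was 0.040, and over all 22671 annotated genes 0.016. Median log2 fold changes ran from -0.034 in the lowest of 5 equal bins by GC content to 0.045 in the highest, and 9.06% and 13.6% of genes in those bins were higher in batch 2. The mean GC content of protein-coding counts was 47.4 ± 0.257% in batch 1 (SD, n = 4) and 47.2 ± 0.313% in batch 2 (SD, n = 6), with an exact permutation p of 0.37.

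With transcript length rho was 0.23. The shortest of 5 bins, of 207 to 2167 bases, had a median of -0.14, with 9.36% higher and 10.02% lower. The longest bin, of 6227 bases and more, had a median of 0.18, with 17.7% higher and 2.18% lower. Removal of the GC trend, possible for the 22671 annotated genes, left 4846 calls, 2679 higher and 2167 lower, with 302 of the small RNA loci called, and 15 of 20 cholesterol genes lower. Removal of the trends with GC content and length together left 4746 calls. There the C/D box RNAs turned to 27 higher and 19 lower of 144, with a median of 0.26, while of the 102 H/ACA RNAs 81 were lower and 4 higher, with a median of -1.42. Over the small RNA loci together 60 were then higher and 170 lower. For classes of short RNA, length and class cannot be told apart in this fit, so it cannot decide whether a class changed.

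**Figure D5:**
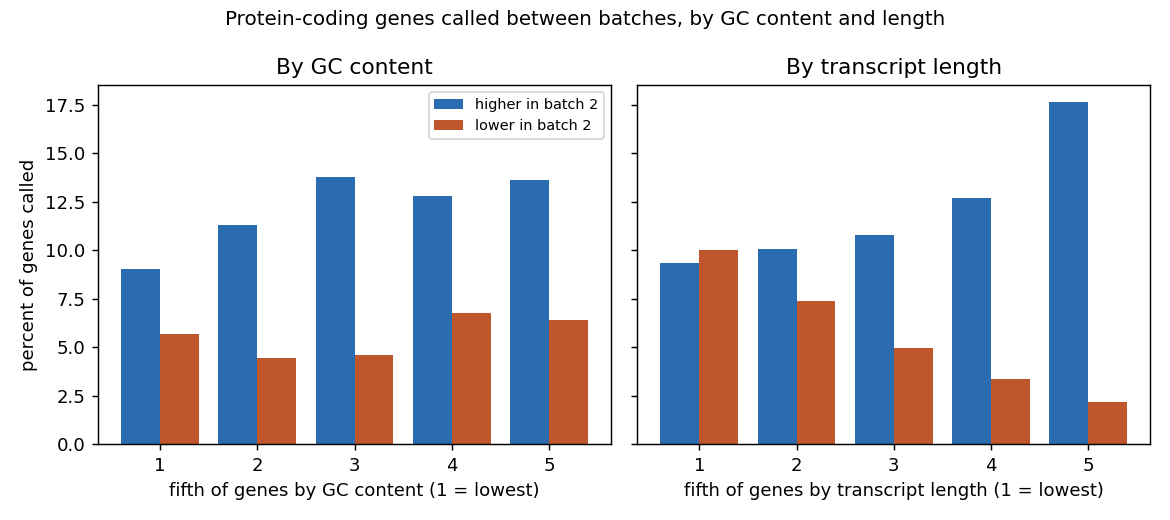
Percent of protein-coding genes higher (blue) or lower (orange) in batch 2 by 5 equal bins of GC content (left) and of transcript length (right). Across GC bins the shares stay between 9.06% and 13.8% higher and 4.43% and 6.75% lower, whereas with length the higher share climbs from 9.36% to 17.7% and the lower share drops from 10.02% to 2.18%.

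Of the sorted antigens, EPCAM (log2 fold change -0.55 ± 0.08 (SE), adjusted p = 9.22e-05) and CD9 (log2 fold change -0.48 ± 0.12 (SE), adjusted p = 0.00582) stayed under 1.5-fold over all libraries, and CD9 had -0.78 in the general libraries alone and -0.15 in HHH alone. Both populations showed the batch difference. Fitted alone, the general libraries gave 3201 genes higher and 2263 lower in batch 2, and the HHH libraries 2130 higher and 2090 lower. Of these, 2426 were called in both, 44.4% of the general and 57.5% of the HHH calls, and 2412 of them had the same direction. A test of whether the batch difference differed between the populations called 183 genes at an adjusted p under 0.05 (0.758% of those tested), of which 170 were more negative in HHH. With the GC trend removed this fell to 10, so single genes of this kind rest on that choice. It was 21 without general replicate 1 of batch 1, 25 without general replicate 3 of batch 2, and 86 to 114 without HHH replicate 3 of batch 1 or any other single library of batch 2.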

How the data were processed

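RNA was measured by sequencing in 10 libraries, whose population, batch and replicate number were read from their titles. The authors deposited whole fragment counts per Ensembl gene without normalization (55841 identifiers). Their processing notes name CASAVA 1.8.2, R 3.2.2, limma 3.26.9 and the build GRCh37. The aligner, counter and annotation are not given in the sources used here. The authors also deposited log2 values, a score after TMM scaling and RPKM conversion per the file name, where each gene has the same mean in both batches (largest gap 9.2e-14, 27641 genes). These values were not used for any result.

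Genes were kept by filterByExpr (batch as group, minimum count 10), which left 24154, and batch 2 was compared with batch 1 in edgeR 4.0.16 (R 4.3.3) with its quasi-likelihood test, TMM scaling and a term for the population. The test was two-sided, and p-values were adjusted over the 24154 genes (Benjamini-Hochberg). The common biological coefficient of variation was 0.129. Standard errors are the log2 fold change over the root of F. On simulated counts the fit was tested before use. Identifiers were matched to GENCODE 44 (GRCh38): 88.5% of all and 93.9% of the tested genes matched, and those without a match took 18.0 ± 1.79% (SD, n = 4) and 9.19 ± 1.20% (SD, n = 6) of the counts in batches 1 and 2. They stayed in library sizes and tests. RMRP, RPPH1, TERC, RNU11 and RNU12 had no match and are not analysed here. Some members that the rule would name are not reported here. Among 23750 genes with at least 100 counts, 50 had counts identical to another gene, as reads counted for each gene they overlap would give. The strand setting of the counting is not given. Counts of libraries of the same group differed by more than sampling noise (chi-square 6.31 to 54.8 times its degrees of freedom).

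Genes, lists and rules were chosen with earlier results of these data known. Named genes were a set of leading pathway genes, the 2 called genes per list and direction with the largest change (mean in the higher batch at least 1 CPM), and the 6 protein-coding genes per direction with the largest change without overlap of the batches. Others are said to be named after their values were seen, or are list members given by their role. Alternatives were other scalings, filters, tools (DESeq2 1.42.0, limma voom 3.58.1), GC and length trends (splines with 5 degrees of freedom), a replicate block, each population alone, other thresholds and each library left out. The protein-coding genes alone and other limits for the genes near 0 were added after the data had been seen.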

Additional observations from a re-analysis of the deposited data

Results flagged for a closer look

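For 4 results the batch difference itself differed between the populations in the interaction test of edgeR with Benjamini-Hochberg adjustment. Each value is the log2 difference of HHH minus that of the general libraries. Over all genes such calls fell from 183 to 10 with the GC trend removed and to 28 with a replicate block. Whether these 4 stay among them is not given here. FZD2 had -1.08 (adjusted p = 0.00641), from -0.73 in the general and -1.82 in the HHH libraries. SKI had -1.04 (adjusted p = 0.0138), from 1.30 to 0.25. POU3F1 had -0.88 (adjusted p = 0.0460), from -0.15 to -1.04. ENSG00000264063, a locus of the microRNA list, had -5.03 (adjusted p = 2.87e-06), from -0.64 to -5.68. That locus had 1.87, 2.45, 89.3 and 68.2 CPM in batch 1 and 1.06, 1.42 and 2.09 CPM in batch 2, and both HHH libraries of batch 1 stood above all others.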

How the results depend on the processing

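Between batches 5236 genes were called. The count was 7891 with library size as the only scaling, 3490 among genes of at least 1 CPM in 4 libraries, 2094 at a fold over 2, 1782 in a test against 1.5-fold, 2695 in the protein-coding genes fitted alone, and 4790 to 5925 with 1 library left out. For the 46 pluripotency genes 16 calls became 5 at a fold over 2, 7 against 1.5-fold, and 14 to 18 with 1 library left out. For the signalling genes 31 calls became 47 with library size alone, 9 at a fold over 2, 12 against 1.5-fold, 26 to 35 with 1 library left out, and, with more lower than higher, 26 after GC and length trends and 20 in HHH alone. The 301 small RNA calls became 189 at 1 CPM, 230 after GC and length trends (60 higher and 170 lower, against 9 and 292) and 281 to 311 with 1 library left out. The difference in small RNA share was -3.22 percentage points in the general and -3.17 in the HHH libraries (exact permutation p = 0.1 each, the smallest of 10 arrangements), and -3.56 to -2.81 with 1 library left out. The 183 interaction calls became 833 in DESeq2, 10 without the GC trend, 28 with a replicate block, and 21 to 221 with 1 library left out. Genes near 0 numbered 17 at 3 counts and 64 at 30. The cause of these changes was not tested.

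Some named genes that missed the test, and ETV4, changed sign. FOS had 0.016 with upper quartile scaling, 0.31 with library size, 0.051 in HHH alone and -0.19 to 0.067 with 1 library left out. FZD8 had 0.012 with upper quartile scaling, 0.29 with library size, 0.016 without the population term, 0.17 in the general libraries and -0.10 to 0.083 with 1 library left out. ETV4 had 0.068 with library size, NANOG -0.058 after GC and length trends, and POU5F1 -0.087 in the general libraries. In HHH alone DKK1 had 0.32, LEF1 -0.10 and OTX2 -0.027, and DKK1 had -0.55 to 0.034 with 1 library left out. Of 92 named genes past the adjusted p, 57 passed in every alternative and 91 kept their direction. The 92 include genes named for the size of their change, and genes without a test above, such as CAT, EDNRB, FOXA2 and PKLR. These counts therefore describe dependence on the processing only and lend no weight to the calls.

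General and HHH libraries of the same batch and replicate number correlated at 0.0899 to 0.294 in 4 pairs, and others at -0.199 to 0.194. Of these libraries 8 of 8 correlated best with their own number. In batch 1, with 2 libraries per population, every such pair had 0.194 or -0.194. There general replicate 1 with HHH replicate 3 reached the same 0.194 as the matching pair. Batch 1 thus adds little to this hint, which comes from the data only. Between batches same numbers correlated at -0.306 to -0.0957, so numbers were not taken as pairs. A replicate block gave 4987 batch calls, 17 pluripotency, 27 signalling and 292 small RNA calls. Depth limits genes under 3 counts.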

Other observations

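Cytosolic ribosomal protein genes took 3.34 ± 0.00634% of the counts in batch 1 (SD, n = 4) and 3.75 ± 0.306% in batch 2 (SD, n = 6), without overlap (exact permutation p = 0.02). As genes, 7 of 80 were lower and 2 higher, with a median log2 fold change of -0.21. Scaled by library size alone, 5 were higher and 1 lower.

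Mitochondrially encoded messages, which code for subunits of the respiratory chain, had 5 of 13 lower and none higher, with a median of -0.52, and 2 lower and 1 higher when scaled by library size alone. Mitochondrial rRNAs and tRNAs had 16 of 24 lower and none higher, with a median of -0.70, but 7 lower by library size alone and 5 lower and 11 higher, with a median of 0.49, after removal of trends with GC content and length. The messages took 0.209 ± 0.0498% of the counts in batch 1 (SD, n = 4) and 0.261 ± 0.0546% in batch 2 (SD, n = 6). The shares of both groups overlapped between batches, with an exact permutation p of 0.12 for the messages and 0.21 for the rRNAs and tRNAs. Of 17 target genes of p53, 1 was higher and 2 lower, with a median of -0.046. CDKN1A, the cell cycle inhibitor p21, fell (log2 fold change -0.73 ± 0.25 (SE), adjusted p = 0.0267), though its adjusted p in edgeR's quasi-likelihood test was 0.329 without general replicate 1 of batch 1, 0.0645 without general replicate 1 of batch 2 and 0.0501 without general replicate 3 of batch 2. TP53I3 fell (log2 fold change -0.62 ± 0.07 (SE), adjusted p = 1.69e-05). XPC, a DNA repair gene that shares 24.6% of its exonic bases with another gene, rose (log2 fold change 0.86 ± 0.09 (SE), adjusted p = 5.43e-06). Long noncoding RNA genes had 532 of 3541 higher and 285 lower, and processed pseudogenes 249 of 2598 higher and 403 lower. The 10 most abundant genes of each library took 20.9 ± 2.54% of the counts in batch 1 (SD, n = 4) and 9.68 ± 1.47% in batch 2 (SD, n = 6).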
